A study of Homo sapiens with 2 samples.

Results

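The genes described here are 10 neural cell adhesion molecules of 4 families, the astrotactins (ASTN1, ASTN2), the IgLON family (NTM, OPCML, LSAMP, NEGR1), the NCAM family (NCAM1, NCAM2) and the L1 family (L1CAM, CHL1). They were chosen by symbol, through the RefSeq accession of each probe. All 10 genes had a probe, and together they were read from 16 of 42402 probes and 22 of 58717 spots, out of 19061 named genes on the arrays. The samples were SBC-3 cells, an adherent small-cell lung cancer (SCLC) line, transfected with #1 siHOTAIR, a small interfering RNA against the long noncoding RNA HOTAIR, or with siGFP, the control siRNA against green fluorescent protein. Both conditions therefore share the cell line and a transfection, and only 1 siRNA against HOTAIR was analysed here. Each condition had 1 one-colour Agilent array and no replicate, so the difference between the siRNAs cannot be told apart from that between cultures or arrays, and no test between the conditions was made.

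Neural adhesion molecules are surface proteins that hold neurons to one another, to glia and to the matrix, and that steer migration and axon growth. The IgLON proteins are immunoglobulin-domain proteins tethered to the membrane by a lipid anchor, whereas NCAM and L1 proteins mostly span it and signal inside the cell. NCAM1 is known to pathologists as CD56, a routine marker of neuroendocrine tumors including SCLC. HOTAIR is known to bind the chromatin regulator PRC2 and the LSD1-CoREST-REST complex, and REST is a repressor of neuronal genes.

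The duplex that separates both conditions is shown first, because it is the only reagent that differs from the control by design. Both strands are written from the 5′ end, and capitals mark the seed, bases 2 to 8 of the antisense strand, which guides silencing. The strands pair over 19 bases.
#1 siHOTAIR antisense: uCUCUCUGuacucccguucuu
#1 siHOTAIR sense: gaacgggaguacagagagauu

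HOTAIR, the targeted RNA, was read first as a check of the labels. Its single spot had a signal of 108 with #1 siHOTAIR and 244 with siGFP, a log2 ratio of -1.22 after each array was scaled to the 75th percentile of its signals. The array labelled #1 siHOTAIR thus read lower for its target. From the median pixel signal of the spot, without background correction, the log2 ratio was -0.73.

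Most spots of the adhesion molecules gave little or no signal in SBC-3 cells. The scanner software calls a spot well above background when its signal clearly exceeds the noise of the background, and the lowest signals so called were 37.3 with #1 siHOTAIR and 28.6 with siGFP. Of the 22 spots, 5 were well above background on both arrays, 2 with #1 siHOTAIR only, 2 with siGFP only, and 13 on neither. That is 7 of 22 spots on each array, where 55.5% of all spots passed with #1 siHOTAIR and 58.3% with siGFP. Those 13 spots ran from 7.40 to 16.3 with #1 siHOTAIR and from 5.65 to 19.0 with siGFP. The former was the higher in 10 of the 13. Dim probes in general shared this small excess, with a median log2 ratio of 0.34 over all probes that neither array measured above background. By gene, 8 of the 10 passed this call on at least 1 array, counting a probe when at least 50% of its spots did, beside 68.3% of all named genes. LSAMP and CHL1 did so on neither.

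**Figure D1:**
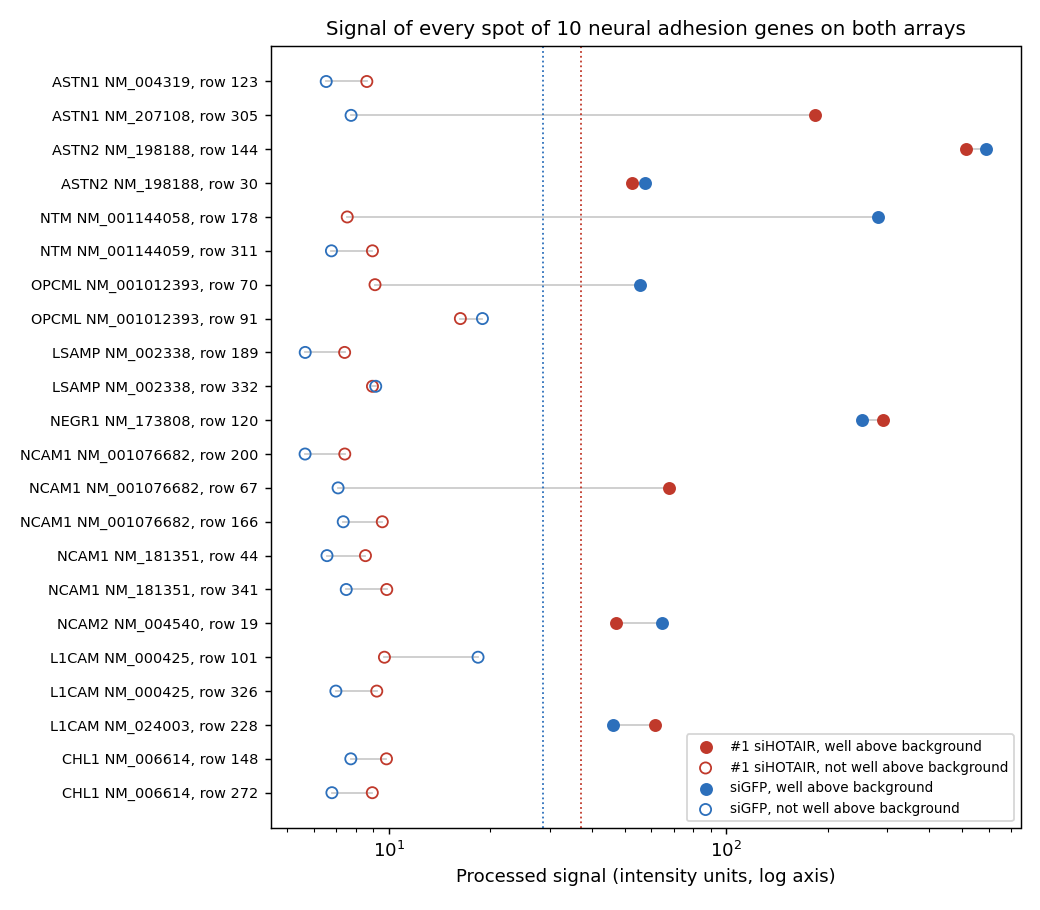
Processed signal of each of the 22 spots of the 10 genes on a log axis, #1 siHOTAIR in red and siGFP in blue, labelled by gene, transcript accession and array row. Filled points are well above background, open points are not, and the dotted lines mark the lowest signal well above background on each array, 37.3 and 28.6. Only 5 spots are filled on both arrays, and their pairs of points lie close together.

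The 4 genes measured on both arrays, ASTN2, NEGR1, NCAM2 and L1CAM, differed little. Their 5 probes had log2 ratios from -0.50 to 0.37, and none reached 2-fold, where 2.88% of the 12031 genes measured on both arrays did. The other 4 genes, ASTN1, NTM, NCAM1 and OPCML, were well above background on 1 array only, as were 7.59% of all genes compared. With dim signals at their own level, ASTN1 and NCAM1 read at least 2-fold higher and NTM and OPCML at least 2-fold lower with #1 siHOTAIR, 4 of the 8 genes compared, beside 6.15% of the 13014 genes compared. Among all 988 genes well above background on 1 array only, 46% changed by that measure, so such readings were common in this class of genes. A stricter reading raises the dim side to the lowest signal well above background on its array, and the fold is then called a bound. It is not a strict lower bound, since some signals above that limit were not called, such as 37.7 for an NRP1 spot with siGFP. At their bounds only ASTN1 and NTM passed 2-fold, beside 3.83% of all genes compared and 15.5% of those well above background on 1 array only. A bound of at least 6-fold, which both reached, was seen in 15 of the 988 genes, or 1.52%. That limit was not among the planned thresholds and lies just under the ASTN1 bound, so that both reached it carries no weight. The study had named ASTN1 and NTM from these same arrays, so their place at the extremes is a description and no independent evidence. It also listed OPCML among its downregulated genes.

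**Figure D2:**
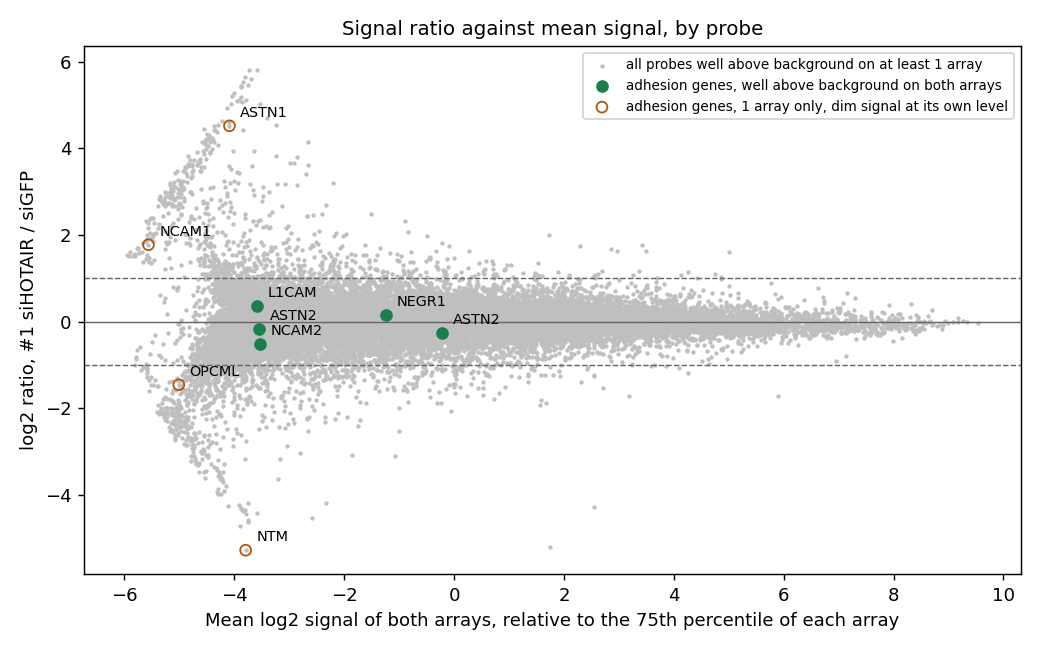
The log2 ratio of #1 siHOTAIR over siGFP against the mean log2 signal of both arrays for each probe well above background on at least 1 array (grey), with the probes of the adhesion genes marked and the 2-fold limits dashed. The probes measured on both arrays (filled) lie between -0.50 and 0.37, and the 4 measured on 1 array (open) lie on the arms formed by probes with a dim signal on the other.

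Among the astrotactins, ASTN1 is a neuronal surface protein on which migrating neurons depend to move along glial fibers, and ASTN2 regulates how much ASTN1 reaches the surface. ASTN1 had 2 probes with 1 spot each. The spot for the transcript NM_207108, in row 305 of 384, had a signal of 183 with #1 siHOTAIR, with a software error of 21.0. With siGFP it had 7.73, so that it read 6.20-fold higher with #1 siHOTAIR at its bound. The spot for NM_004319, in row 123, had 8.61 and 6.53, dim on both arrays. Of the ASTN1 transcript accessions, 1 was therefore bright on 1 array and the other was not. Of 793 spots well above background on the #1 siHOTAIR array only, 39 were as bright as the ASTN1 spot or brighter, itself included. ASTN2 had 2 probes, both for NM_198188. The brighter gave 512 with #1 siHOTAIR and 591 with siGFP, a log2 ratio of -0.25 with an SD of 0.11 from repeated spots and 0.21 from the software. The dimmer gave 52.5 and 57.4, a log2 ratio of -0.17 with SDs of 0.23 and 0.37. Both ASTN2 probes thus read slightly lower with #1 siHOTAIR, the dimmer by less than either SD. These SDs cover measurement within an array, not the difference between cultures.

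The IgLON family held both the lowest reading and genes near background. NTM (neurotrimin), an IgLON protein of developing neurons, had 2 probes with 1 spot each. The spot for NM_001144058, in row 178, had a signal of 7.53 with #1 siHOTAIR and 283 with siGFP, the latter with a software error of 43.8. It read 7.84-fold lower with #1 siHOTAIR at its bound. The spot for NM_001144059, in row 311, had 8.95 and 6.76. As for ASTN1, only 1 of the 2 transcript accessions was bright, and on 1 array. Of 2459 spots well above background on the siGFP array only, 3 were as bright as this NTM spot or brighter, itself included.

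OPCML, an opioid-binding cell adhesion molecule that is the nearest protein-coding neighbor of NTM on chromosome 11 in the RefSeq table, had 1 probe with 2 spots. In row 70 the signal was 9.10 with #1 siHOTAIR and 55.4 with siGFP, and the spot in row 91 had 16.3 and 19.0. The siGFP signals of this pair differed 2.92-fold from each other within the array, and only the first was well above background. Averaged, OPCML read 12.2 against 32.4, a log2 ratio of -1.46 at its own level, and since 32.4 scaled lies below the limit on the other array, no bound can be given. NEGR1, a growth regulator of neurons, gave 291 and 253 from 1 spot, a log2 ratio of 0.16 with SDs of 0.11 and 0.21. LSAMP, which guides limbic connections, had 2 spots for 1 probe, with signals of 7.40 and 8.95 with #1 siHOTAIR and 5.65 and 9.15 with siGFP, all near background. The family as a whole thus showed 1 gene measured on both arrays, 2 measured with siGFP only and 1 on neither.

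In the NCAM family, NCAM1 was read from 3 probes and 5 spots. With siGFP all 5 were dim, from 5.65 to 7.48. With #1 siHOTAIR 4 of the 5 were dim, from 7.41 to 9.86, and the spot in row 67 of a probe for NM_001076682 had 67.8. The other spot of that probe, in row 166, had 9.57 on the same array, so the pair differed 7.08-fold where both spots carry 1 sequence. A difference of at least 7-fold within the #1 siHOTAIR array occurred in 43 of 4764 probes with 2 spots of which at least 1 was well above background. Averaged, the NCAM1 probe read 25.5 against 7.20, a log2 ratio of 1.78 at its own level, with no bound. With the spots of the leading rows of the array left out, for the reason given with the positions, it was 0.34. CD56 was thus near background on 4 of 5 spots on 1 array and on all 5 on the other. NCAM2, the paralog best known from olfactory axons, gave 47.1 with #1 siHOTAIR and 64.7 with siGFP from 1 spot. Its log2 ratio of -0.50, with SDs of 0.23 and 0.37, was the furthest from 0 among the probes measured on both arrays and fell short of 2-fold.

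In the L1 family, L1CAM, which promotes axon growth and, in tumors, invasion, had 2 probes. The probe for NM_024003 gave 61.4 with #1 siHOTAIR and 46.1 with siGFP from 1 spot, a log2 ratio of 0.37 with SDs of 0.23 and 0.37, and it was 0.01 with normexp background correction. The probe for NM_000425 had 2 spots, reading 9.71 and 9.21 with #1 siHOTAIR and 18.4 and 6.97 with siGFP, none of them well above background. CHL1, the close homolog of L1, had 2 spots of 1 probe, with 9.85 and 8.94 against 7.72 and 6.78. L1CAM transcripts were thus measurable by 1 of 2 probes and CHL1 transcripts were not measurable at this signal.

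Spots that were bright on 1 array only were then read by their pixels, a measure chosen after the signals had been seen. The mean pixel signal of a spot, background subtracted, was divided by its median pixel signal, less the offset of dim spots within 10 rows and columns. An evenly lit spot gives a ratio near 1. Over spots with signals of 30 to 1200, the central 95% ran from 0.909 to 1.13 with #1 siHOTAIR and from 0.895 to 1.15 with siGFP. The NTM spot on the siGFP array had a background-subtracted mean of 326 and a median of 162, a ratio of 2.01. This was above 99.99% of the 9076 spots of similar signal on that array, and 3 of 23555 spots had a ratio as high, itself included. The ASTN1 spot on the #1 siHOTAIR array had a mean of 156 and a median of 156, a ratio of 1.01 at percentile 51.3. The NCAM1 spot in row 67 had a ratio of 1.18, above the central 95% of its array but at percentile 96.6 of spots of similar signal, and the OPCML spot in row 70 had 1.04 at percentile 68.7. The NCAM2 and L1CAM spots on the siGFP array, both at 0.86, lay below the central 95% of all these spots, and at percentiles 2.85 and 3.36 of those of similar signal. The NTM signal therefore rested on an uneven spot and the ASTN1 signal on an even one, and the software marked none of the 22 spots as an outlier. From median pixels with normexp correction, the bound was 1.28 on the log2 scale for ASTN1 and -1.29 for NTM. The part of the unevenness in the NTM reading was not tested.

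**Figure D3:**
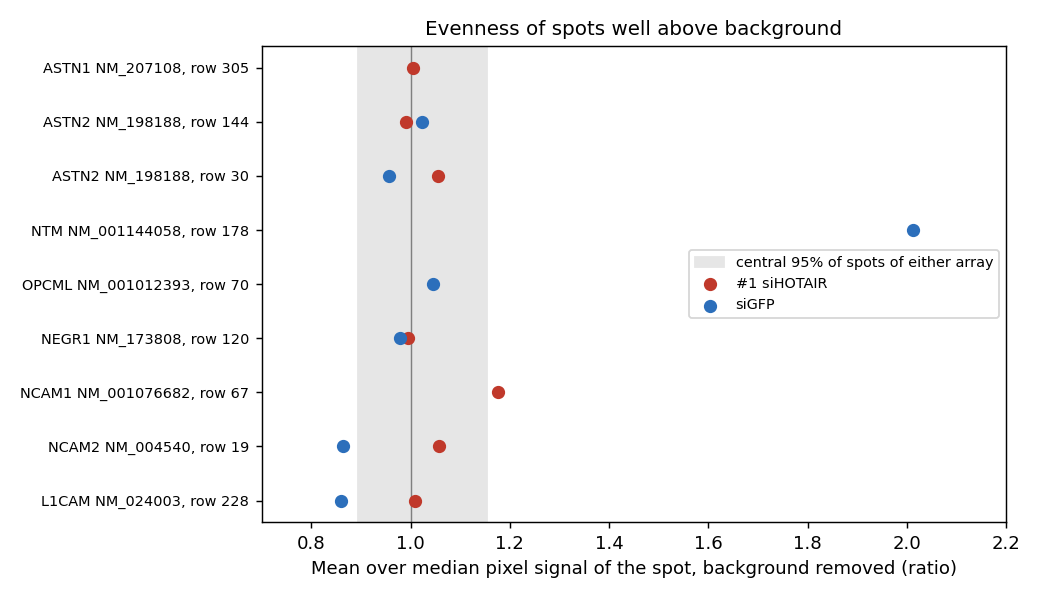
Ratio of the mean to the median pixel signal, background removed, for each spot of the adhesion genes that was well above background, #1 siHOTAIR in red and siGFP in blue. The grey band holds the central 95% of spots of either array. The NTM spot on the siGFP array lies at 2.01, far to the right of the band, and the ASTN1 spot lies at 1.01.

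Position on the array moved with such readings as well. In the leading rows, which held 37.5% of all spots, 2.76% of spots differed at least 4-fold between the arrays, against 0.834% in the other rows. Of the 22 spots of these genes, 10 lay in the leading rows, among them the bright NCAM1 spot and both OPCML spots, while the bright ASTN1 and NTM spots lay outside. With those rows left out, 3 genes remained measurable, ASTN1, NTM and L1CAM, and of these ASTN1 read higher and NTM lower by at least 2-fold.

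The promoters of ASTN1 and NTM are shown because these genes had the bounds past 2-fold. Each is the 250 bases before a transcript start, from RefSeq on GRCh38.p14, 5′ to 3′ on the strand of the gene, with CG dinucleotides in capitals.
ASTN1, chr1:177164713-177164962, minus strand: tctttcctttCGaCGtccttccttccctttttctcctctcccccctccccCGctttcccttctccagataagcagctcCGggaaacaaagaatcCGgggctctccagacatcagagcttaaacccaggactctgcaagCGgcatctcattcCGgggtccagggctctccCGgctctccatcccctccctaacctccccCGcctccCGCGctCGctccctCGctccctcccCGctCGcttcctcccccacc
NTM, chr11:131370365-131370614, plus strand: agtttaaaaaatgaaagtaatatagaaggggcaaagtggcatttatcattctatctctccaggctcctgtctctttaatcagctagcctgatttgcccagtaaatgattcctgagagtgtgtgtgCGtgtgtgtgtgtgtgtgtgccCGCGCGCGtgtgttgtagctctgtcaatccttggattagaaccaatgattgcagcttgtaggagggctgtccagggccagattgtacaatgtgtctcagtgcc
The ASTN1 promoter held 15 CG dinucleotides and 62.8% G and C, and the NTM start shown 5 and 46.4%. The median of all 35116 promoters of this length was 11 and 58%. The NTM start shown is the first of 5 in the table, which does not tie starts to transcripts. The other NTM starts held from 2 to 19 CG dinucleotides and from 51.2% to 63.2% G and C, so the start shown does not stand for the gene. Over 18 starts of the 8 genes with an entry, the left arm of the REST element, TTCAGCACC, was found in 0 on either strand, as against 0.288% of all promoters. The right arm, GGACAG, was found in 6, as against 17.2%, 1 of them the NTM start shown. Starts of 1 gene can overlap, and these counts describe letters in these windows only.

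Related neural adhesion genes and the partners of NCAM and L1 proteins were read from lists of 54 genes, of which 29 passed the same call on at least 1 array. Of the 29, 4 read at least 2-fold higher and 1 at least 2-fold lower with dim signals at their own level, beside 2.74% and 3.41% of all genes compared, and their median log2 ratio was 0.14 beside 0.02. The nearest relatives of the members stayed within 2-fold. IGLON5, the remaining IgLON, had a log2 ratio of -0.21 and NRCAM, an L1 family protein of axon initial segments and nodes, had 0.91 with an SD of 0.16 from repeated spots. NFASC, neurofascin, had 0.01 with an SD of 0.67, and was well above background with siGFP only.

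Among the contactins and their associated proteins, 7 of 11 were well above background on neither array, which is called at background from here on. CNTNAP2, which clusters potassium channels on axons, had signals of 95.7 and 112 with #1 siHOTAIR and 43.5 and 32.8 with siGFP. Its log2 ratio was 1.41 with an SD of 0.39, and both spots read higher, in rows 30 and 234. Row 30 is among the leading rows, and the siGFP signal in row 234 was not well above background. CNTNAP1 had the brightest probe of this list, with 198 against 126 and a log2 ratio of 0.60.

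Of 19 synaptic and neuronal adhesion genes, 15 were at background. NRXN2, a presynaptic neurexin, gave 342 with #1 siHOTAIR and 140 with siGFP from 1 spot in row 3. Its log2 ratio was 1.24 with an SD of 0.18, and that spot lies in the leading rows. NLGN3, a neuroligin that binds neurexins, had a spot in row 46 with 86.5 against 7.21 and a spot in row 196 with 9.003 against 6.88. Its 2 spots thus disagreed as those of NCAM1 did, and the bright one lies in the leading rows. MCAM, an endothelial and melanoma adhesion molecule, was the brightest of the list with 5096 against 3910, a log2 ratio of 0.34. NLGN2, the neuroligin of inhibitory synapses, had 0.81.

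Partners of NCAM and L1 proteins were mostly measured on both arrays, 10 of 16. NRP1, a semaphorin and growth factor receptor that pairs with L1CAM, had signals of 143 and 107 with #1 siHOTAIR and 35.2 and 37.7 with siGFP. These are the spots of the probe by which NRP1 was read, of 2 for this gene, and the other probe is not given. Both spots of that probe, in rows 140 and 352, were higher with #1 siHOTAIR, with a log2 ratio of 1.72 and an SD of 0.39. Row 140 is among the leading rows, and the siGFP signal in row 352 was not well above background. ANK3, ankyrin-G, anchors L1 family proteins to the spectrin skeleton. It had 26.9 and 27.2 with #1 siHOTAIR and 78.0 and 98.4 with siGFP, 2.43-fold lower at its bound. Those spots lay in rows 271 and 348 and are of the probe by which ANK3 was read, of 3 for this gene. The other ANK3 probes are not given. ST8SIA2 and ST8SIA4, the enzymes that put polysialic acid on NCAM1, were at background, as was NCAM1 itself on most spots. MSN, moesin, was the brightest partner, with 3365 against 2805 and a log2 ratio of 0.22. The 5 proteases that release NCAM and L1 proteins from the surface or cut them within the membrane were all measured on both arrays and stayed within 2-fold. ADAM10 had a log2 ratio of 0.77 and BACE1, the brightest, -0.15.

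**Figure D4:**
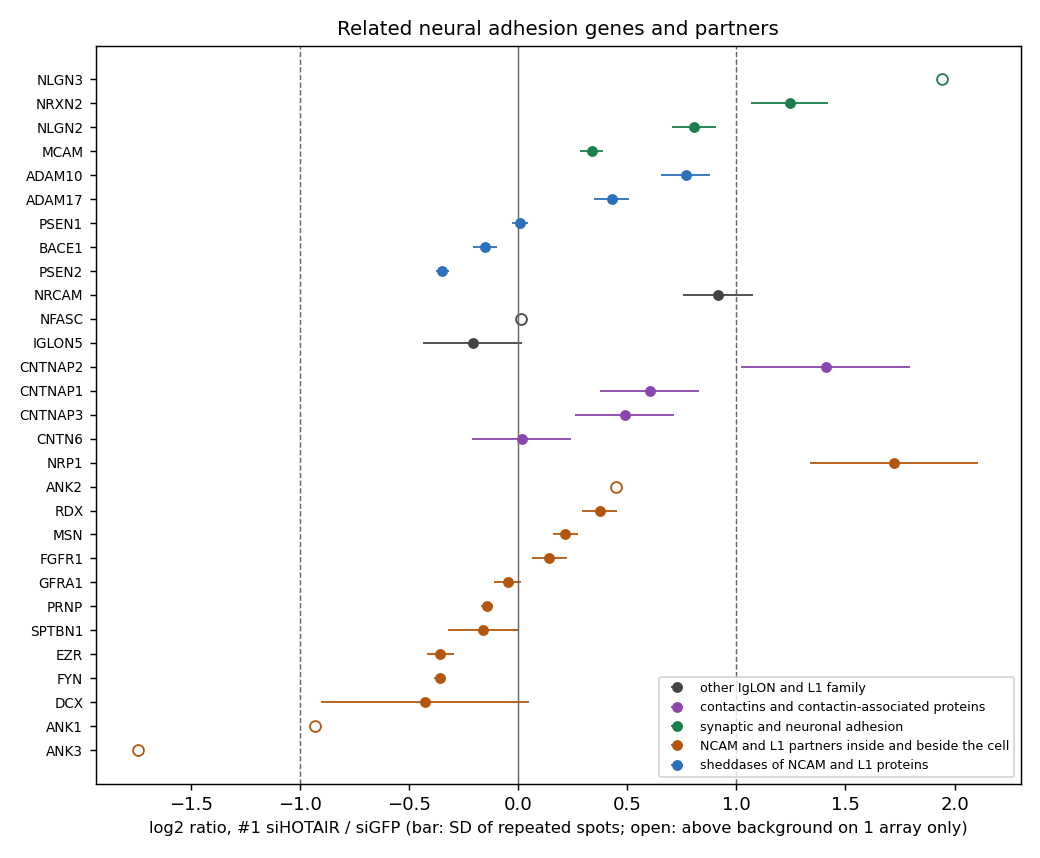
The log2 ratio of #1 siHOTAIR over siGFP for the 29 related genes and partners well above background on at least 1 array, colored by list, with the 2-fold limits dashed. Bars are the SD from repeated spots, and open points are genes above background on 1 array only. CNTNAP2, NRXN2, NLGN3 and NRP1 lie above 1 and ANK3 below -1.

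Markers of cell types were read on the same arrays to check the labelled cells. Among genes of SCLC lineages, INSM1, SYP and POU2F3 were well above background on neither array. NEUROD1 gave 213 against 372, and YAP1 was bright at 6522 and 6750. CHGA was 2.44-fold higher with #1 siHOTAIR at its bound, and CHGB gave 27.9 against 7.43 with no bound. Of 5 epithelial markers, KRT8 was brightest with 2825 and 2557, CDH1 was at background, and EPCAM gave 9.19 against 25.1 with no bound. The fibroblast markers DCN, PDGFRB and LUM were at background, while COL1A1 gave 832 and 414 and COL1A2 3758 and 3741. Of the leukocyte markers CD3E was at background, PTPRC gave 106 and 61.0 and CD79A 3625 and 3755. Their part in the readings of the adhesion genes was not tested.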

How the data were processed

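Gene expression was measured on 2 one-colour arrays, 1 per siRNA. The authors labelled 0.05 ug of RNA with Cy3 and hybridized SurePrint G3 Human GE arrays, and per the labels and file headers the spots were extracted with Agilent Feature Extraction 10.10.1.1. Per spot, the deposited values include a processed signal, an intensity after background subtraction and removal of trends across the slide, not normalized between arrays, and the deposited value table of the series equals the background-subtracted intensity (largest difference 0). The software also deposited flags, read here as they are, among them well above background.

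From there, log2 processed signals were set against the 75th percentile of non-control spots of each array (650.3 and 629.9). Outlier spots (393 and 375) were left out, and spots of a probe were averaged. A gene was read by its compared probe with the highest mean signal. Accessions were matched without versions to RefSeq names (GRCh38.p14), which named 58.5% of probes. The design build of the arrays was GRCh37, so no coordinates are given for probes or gene bodies, and those of promoters are from RefSeq. Probe sequences were not used here, so the transcripts a probe binds are as its accession says. The SD from repeated spots is an expected SD of the log2 ratio of a probe. For each array the median SD over probes with 8 or more spots was taken at 6 levels of signal. Its square was divided by the number of spots of the probe. The SD is the root of the sum over both arrays, so it is smaller for probes with more spots at the same signal. Precision is limited by 1 array per condition and by signal over background. Genes and lists were chosen with earlier results of these data known. Named genes were all members, HOTAIR and, from the lists, every gene changed at least 2-fold and the brightest of each. A few other list genes and the marker values were chosen after their values were seen. Genes like a member in pattern were not sought, since 2 arrays give no pattern.

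The alternatives were quantile normalization, no scaling, the median of detected probes, spike-in RNA, normexp and uncorrected signals. Normexp had an offset of 50 (limma 3.58.1) and was run on median pixel signals, as the mean was not in the columns used. The uncorrected signals were median pixel signals too. Further alternatives were the value table with a floor of 10, other filters, probe rules and thresholds, and bounds. Outlier spots were also kept, and the leading rows (37.5% of spots) left out.

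A marker gene is not reported here.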

Additional observations from a re-analysis of the deposited data

How the results depend on the processing

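Of the 8 genes compared, 4 changed at least 2-fold at their own level, beside 6.15% of all genes compared. The count was 2, ASTN1 and NTM, of 8 with normexp background correction (1.65% of all genes), the signal without background correction (1.32%) and dim signals at their bound (3.83%). It was also 2, of 3, with the leading rows left out (5.08%) and 2, of 6, when every spot of a probe had to be above background (5.57%). It was 0 of 4 when both arrays had to be above background (2.88%). The number of genes well above background was 8. It was 3 with the leading rows left out and 4 when both arrays were required. The median log2 ratio over the genes compared was -0.05, and 0.37 with the leading rows left out, where 3 genes were left. Under each of the other scalings, filters and thresholds run, the count stayed within 1.5 times and the median moved by less than the SD from repeated spots. The HOTAIR log2 ratio of -1.22 was -0.76 with normexp and -0.73 without background correction, both from median pixel signals. For single probes, 87 of 110 alternative values stayed within that SD, 23 moved further, and 0 turned the direction of a change of at least 2-fold. Some of the 87 could not move. No spot of these genes was an outlier, the bright ASTN1 and NTM spots lay outside the leading rows, and the NCAM1 bound was 0 in every setting. The 87 are therefore no measure of stability. The bound ran from 1.06 to 2.77 on the log2 scale for ASTN1 and from -2.97 to -1.08 for NTM. The ends of 1.06 and -1.08 were from median pixel signals without background correction. The cause of these shifts was not tested. Signals under about the limit for well above background carry no order. No paired analysis was possible because each condition had 1 array.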
